A study of Mus musculus with 28 samples.

Results

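Vascular endothelial cells (ECs) of normal bone were compared with bone marrow mononuclear cells (MNCs) of normal mice. The comparison used every wild-type (Flt3+/+) EC library, 5 in all, and every wild-type MNC library, 4 in all, so 9 of the 28 samples of the series, and no measured value was used to choose them. The series itself asks how an internal tandem duplication in Flt3, a receptor tyrosine kinase of blood progenitors, alters blood stem cells and their niche, and its Flt3-ITD samples and mesenchymal stromal cells were not analyzed here. All 9 libraries came from mice of strain C57 BL6 aged 8 to 10 wk that carried the unaltered gene, and no treatment is named for them. ECs had the phenotype CD45-Ter119-CD31+ and were sorted from collagenase-digested bone fragments, with 100 cells per library. MNCs were sorted with 200 cells per library and were not separated by blood lineage. Their titles and source name bone marrow, while their cell type field reads as for bone-lining cells. The study's results describe them as total marrow MNCs and, like the ECs, as taken from bone-lining cells, which were a collagenase digest. Its methods do not say how the MNC suspension was prepared. It is therefore not settled whether they came from central marrow or from the digested bone, and leukocyte genes cannot tell these apart. RNA was amplified over 15 cycles of cDNA synthesis and sequenced as 51-base reads. Sorted population and cells per library changed together, and tissue and digestion may have done so too, so their effects cannot be told apart.

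Endothelium lines every vessel and is held together by cadherin and claudin junctions, takes up fatty acids from the blood, keeps the blood from clotting and lays down a basement membrane. In marrow it forms arterioles and wide, leaky sinusoids, and it presents ligands such as Kit ligand and Cxcl12 to blood stem cells. Marrow MNCs are mostly blood cells in production, with maturing neutrophils, monocytes, B cell precursors and erythroblasts among them, and both cell types arise in the embryo from related progenitors that share ETS, GATA and Tal1 transcription factors.

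Total counts per library ranged from 13155871 to 33880743 in ECs and from 14260910 to 22149240 in MNCs, and 3 counts served as the lower limit of detection. Genes above 3 counts numbered 12831 to 13536 per EC library and 14298 to 15153 per MNC library. The coefficient of biological variation fitted within a population was 0.663 in ECs and 0.382 in MNCs. Of 12231 genes that reached 100 counts in any EC library, 2906 (23.8%) were at 3 counts or fewer in another EC library, and in MNCs this held for 213 of 10900 genes (1.95%). EC levels of a single gene in a single library were therefore the less precise.

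Some libraries stood apart from the rest of their group. EC replicate 1 held erythroid transcripts, with an Hba-a2 level of 2287 RPKM (reads scaled to transcript length and to the reads mapped in the library) beside 9.91 to 194 RPKM in the other EC libraries. MNC replicate 1 held almost none, at 47.6 RPKM beside 20285 to 79279 RPKM in the other MNC libraries. MNC replicates 1 and 2 had Fos at 323 and 239 RPKM, and replicates 3 and 4 at 10.4 and 8.06 RPKM. This split was not limited to Fos. Across genes, the chi-square of count differences per degree of freedom was 96.7 between MNC replicates 1 and 2 and 62.9 between replicates 3 and 4. Between a library of the first pair and a library of the second it was 175 to 310. The MNC libraries thus fell into pairs, and the labels do not say why. EC replicates 2 and 3 had Xist at 16.9 and 13.0 RPKM, and Y-linked Ddx3y at 0.36 and 0.47 RPKM, while the other 7 libraries had Xist at 0.08 to 0.21 RPKM and Ddx3y at 18.0 to 44.0 RPKM. Counts that changed without such libraries are given beside the lists they concern.

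The sorting markers followed the labels. Cdh5, which encodes VE-cadherin of endothelial junctions, measured 246, 252, 235, 237 and 225 RPKM in the 5 EC libraries and 1.43, 0.53, 0.17 and 0.55 RPKM in the 4 MNC libraries. Its mean was 239 ± 10.3 RPKM (SD, n = 5) in ECs against 0.67 ± 0.536 RPKM (SD, n = 4) in MNCs, a 356-fold difference (adjusted p = 6.32e-06). Ptprc, which encodes CD45, was at 0 to 0.05 RPKM in ECs, from 5 counts over all 5 libraries, and at 125 to 147 RPKM in MNCs. Pecam1, which encodes CD31, was 33.4-fold higher in ECs (adjusted p = 3.06e-06). Neither group overlapped the other for these genes, and because the sort of ECs used CD31 and CD45, Pecam1 and Ptprc check the sort only. Both are members of lists described below.

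Over all 14125 genes with enough counts to be tested, 2806 were higher in ECs (19.9%) and 2305 were higher in MNCs (16.3%), together 36.2% of genes, at an adjusted p-value below 0.1 and at least a 2-fold ratio of mean RPKM. Here and below, "higher" and "passed" mean that a gene met this rule, and every adjusted p-value is from edgeR's quasi-likelihood test with Benjamini-Hochberg adjustment over all genes tested. Every EC library lay above every MNC library for 2453 genes (17.4%), and the reverse held for 2393 (16.9%). Of the genes that passed, 1292 were at least 8-fold higher in ECs and 1493 at least 8-fold higher in MNCs. The median difference over all genes tested, in mean log2(RPKM + 1) of ECs minus MNCs, was -0.02, and this is the background for the medians of gene lists given below, which cover all members in the table, tested or not. Scaling moved the median log2 fold change of all genes from 0.12 (TMM) to 0.03 (size factors of DESeq2) and 0.24 (total counts). In bulk libraries, fewer cells of a type and less RNA per cell cannot be told apart, and p-values measure the spread between these libraries.

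**Figure D1:**
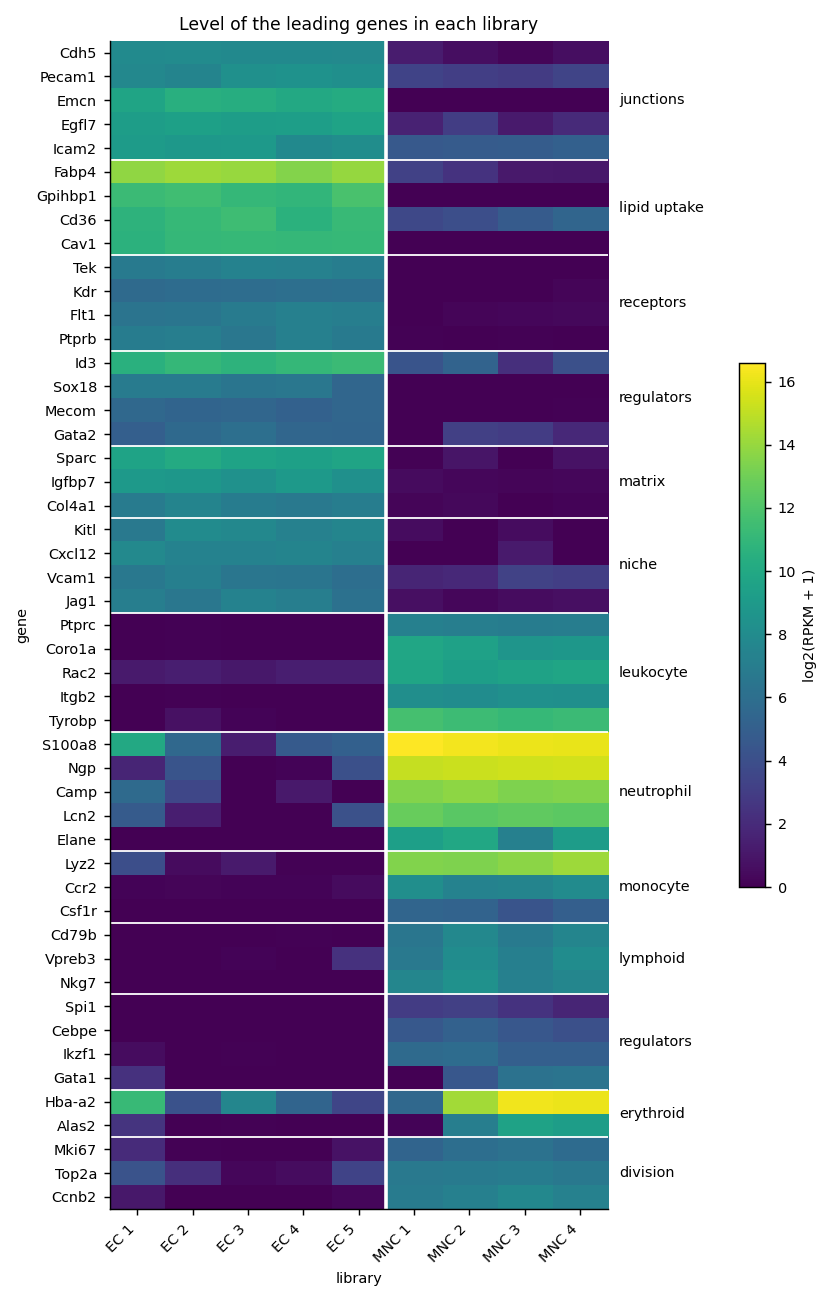
Level of 49 genes in each of the 9 libraries, as log2(RPKM + 1) on a color scale, with genes in rows grouped by role and libraries in columns. The genes above Ptprc are high in every EC library, the genes from Ptprc down are high in MNCs, and Hba-a2, Alas2 and Gata1 are low in MNC replicate 1.

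The list of endothelial junction and surface genes was higher in ECs throughout. All 25 of its 25 tested members passed, beside the background of 19.9%, and the median difference was 5.34. Emcn, which encodes the sialomucin endomucin of capillary and venous endothelium, measured 827, 1409, 1279, 1053 and 1170.4 RPKM in ECs and had no count in any MNC library. Against the floor of 3 counts per library, that is at least 10919-fold higher (adjusted p = 2.15e-06). Ecscr, a regulator of endothelial migration, had the same pattern at 589 to 958 RPKM and no MNC count. Egfl7, a secreted vessel factor, was 199-fold higher (665 ± 75.6 against 3.34 ± 2.61 RPKM, adjusted p = 6.48e-06). Tight junction gene Cldn5 varied more among EC libraries, at 65.3, 35.3, 32.6, 112 and 12.01 RPKM, but its lowest EC value was above the highest MNC value of 0.04 RPKM. Ctnnb1, which encodes the cadherin-bound beta-catenin that most cells use, was only 8.82-fold higher (358 ± 41.7 against 40.6 ± 7.64 RPKM, adjusted p = 2.63e-06).

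Promoters of Tie1, an orphan receptor that works with the angiopoietin receptor Tek, and of Emcn are shown because members of the endothelial lists moved together and because ETS factors, whose core letters are GGAAG, are known regulators of endothelial genes. The windows run from 250 bases before to 50 bases after the start site in RefSeq (GRCm38.p6), 5′ to 3′ on the strand of the gene, with each GGAAG or its reverse complement CTTCC in capitals.
Tie1 (chr4:118489800-118490099, minus strand): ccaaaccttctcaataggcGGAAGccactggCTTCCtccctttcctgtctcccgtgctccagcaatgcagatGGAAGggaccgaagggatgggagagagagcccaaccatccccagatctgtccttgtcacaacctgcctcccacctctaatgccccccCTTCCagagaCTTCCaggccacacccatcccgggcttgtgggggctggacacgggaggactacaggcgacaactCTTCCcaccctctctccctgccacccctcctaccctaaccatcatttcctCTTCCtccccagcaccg
Emcn (chr3:137340828-137341127, plus strand): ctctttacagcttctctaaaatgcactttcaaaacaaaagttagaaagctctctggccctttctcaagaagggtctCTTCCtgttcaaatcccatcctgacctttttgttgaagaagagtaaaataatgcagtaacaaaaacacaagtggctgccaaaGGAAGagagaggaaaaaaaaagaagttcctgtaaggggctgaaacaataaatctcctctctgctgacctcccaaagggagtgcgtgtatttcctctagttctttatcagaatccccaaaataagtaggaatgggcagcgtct
The Tie1 window held 7 matches and the Emcn window held 2. Tie1 itself measured 13.9, 38.7, 28.3, 43.0 and 35.2 RPKM in ECs and 0.35, 0.66, 0.46 and 0.32 RPKM in MNCs, with no overlap (71.1-fold, adjusted p = 1.44e-05). Both strands were searched, and a match inside the longer forms GAGGAAG and CCGGAAG was counted too. Short letters such as these are common: 71.4% of all 32851 windows held GGAAG, and 75.8% of windows of the genes tested. Among genes at least 8-fold higher without overlap between the groups, the share was 68.9% for ECs and 76.5% for MNCs. Windows were found for 9684 of the 14125 genes tested.

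Genes for caveolae and lipid uptake were the most abundant endothelial list, with 3.21 ± 0.421% of all counts in ECs and 0.0368 ± 0.00239% in MNCs. Of 19 members tested, 17 were higher in ECs, and the median difference was 5.06. Fabp4, a fatty acid carrier, measured 14614, 18006, 16462, 11604 and 15980.2 RPKM in ECs and 8.21, 4.42, 1.23 and 1.08 RPKM in MNCs, the highest EC level of any gene at least 8-fold higher there. Gpihbp1, which holds lipoprotein lipase on the capillary wall, measured 2537, 2948, 2169.7, 1977 and 3617 RPKM in ECs and had no count in MNCs, at least 12748-fold higher (adjusted p = 2.63e-06). Its partner Lpl, which encodes the lipase, was 12.7-fold higher in ECs (145 ± 39.0 against 11.4 ± 5.6 RPKM, adjusted p = 7.36e-05). The fatty acid receptor gene Cd36 was 89.6-fold higher in ECs (adjusted p = 3.88e-05). Cav1, the main coat protein of caveolae, was at 1640.1 to 2268 RPKM in ECs with 1 count over all MNC libraries. Pacsin2, a membrane-bending protein, did not pass, at 7.19 to 34.0 RPKM in ECs and 16.2 to 19.9 RPKM in MNCs (adjusted p = 0.967).

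Receptors for vascular growth and guidance factors were higher in ECs for 20 of 21 tested members (median difference 4.2). Tek, the angiopoietin receptor, measured 116, 132, 162, 159 and 128 RPKM in ECs with no count in MNCs, at least 3881-fold higher (adjusted p = 1.62e-06). Ptprb, the phosphatase that restrains Tek, was 2578-fold higher (123 ± 20.2 against 0.0475 ± 0.033 RPKM, adjusted p = 1.31e-07). Among the receptors for vascular endothelial growth factors, Flt1 had a mean of 115 ± 29.5 RPKM in ECs, Kdr 60.5 ± 6.3 RPKM and the lymphatic and sinusoidal receptor Flt4 17.9 ± 4.86 RPKM. In MNCs all 3 stayed at or below 0.29 RPKM in each library. Igf1r, the receptor for insulin-like growth factor 1, did not pass, and its ranges of 3.98 to 15.5 RPKM in ECs and 1.85 to 5.99 RPKM in MNCs overlapped (adjusted p = 0.417).

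Most genes of the Notch pathway, which sets arterial identity, were higher in ECs. Ligands Jag1, Dll4, Dll1 and Jag2, receptors Notch1, Notch3 and Notch4 and targets Hes1, Hey1 and Nrarp were higher in ECs, 10 of 12 tested members (median difference 1.53). The call of Nrarp was lost without MNC replicate 3 or 4 (adjusted p = 0.121 and 0.111). Notch3 is also a member of the pericyte and smooth muscle list described below, whose summed level was higher in every EC library than in any MNC library, and the part of pericytes in its level was not tested. Jag1 measured 135, 94.9, 167, 138 and 72.3 RPKM in ECs and 0.59, 0.2, 0.46 and 0.57 RPKM in MNCs, a 267-fold difference (adjusted p = 4.84e-06). Hes1, a target of Notch receptors, was 90.2-fold higher (adjusted p = 3.46e-05). Notch2 went the other way, at 2.89, 2.08, 3.57, 2.57 and 1.85 RPKM in ECs and 16.1, 16.02, 5.98 and 6.53 RPKM in MNCs, and its groups did not overlap (4.3-fold higher in MNCs, adjusted p = 0.00116). Notch1 was 2.82-fold higher in ECs (adjusted p = 0.00907), with 6.43 to 27.4 RPKM in ECs just above 4.21 to 6.37 RPKM in MNCs. Rbpj, the DNA-binding partner that all Notch receptors share, did not pass (14.1 ± 7.49 against 16.1 ± 3.14 RPKM, adjusted p = 0.581). For Notch4 the RPKM ratio was 2.44-fold and the fold change fitted to the counts was 3.46 ± 0.47 (log2 ± SE), so its size depends on the measure.

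Endothelial transcription factors were higher in ECs for 20 of 21 tested members (median difference 3.72). Id3, an inhibitor of helix-loop-helix factors, was the most abundant, at 1497, 2152, 1733, 2171 and 2584 RPKM in ECs and 18.7, 37.7, 3.82 and 15.7 RPKM in MNCs (107-fold, adjusted p = 3.01e-05). Sox18, which acts in vessel development with Sox7 and Sox17, had 44.0 to 118 RPKM in ECs and 1 count over all MNC libraries. Epas1, the hypoxia factor HIF-2alpha, was 461-fold higher (adjusted p = 7.36e-07). Flow-responsive Klf2 and Klf4 were higher by 5.72-fold and 10.4-fold (adjusted p = 0.0161 and 0.0035), and Klf2 at 31.8 RPKM in EC replicate 2 lay below MNC replicates 1 and 2. Ets1, which lymphoid cells also use, did not pass, at 83.3 ± 22.1 RPKM in ECs and 65.7 ± 13.2 RPKM in MNCs (adjusted p = 0.847). Of the factors that passed, Mef2c and Fli1 were also present in MNCs, at 15.5 ± 5.32 and 53.5 ± 12.4 RPKM.

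Genes of bone morphogenetic protein (BMP) and TGF-beta signaling were higher in ECs for 14 of 21 tested members and higher in MNCs for 2 (median difference 1.72). The share in MNCs, 9.52%, was below the background of 16.3%. Bmp4, a secreted ligand, measured 51.8, 70.6, 33.0, 38.9 and 34.7 RPKM in ECs and 0.16, 0.09, 0.11 and 0.04 RPKM in MNCs (458-fold, adjusted p = 3.98e-06). Of the receptor-regulated factors, Smad1 and Smad5, which carry BMP signals, were higher in ECs. Smad3, which carries TGF-beta signals, was 11.7-fold higher in MNCs (adjusted p = 0.0939), while Smad2, which also carries them, was tested and did not pass. Smad3 stood at 0.64, 0.01, 0.68, 0 and 0.01 RPKM in ECs and 3.04, 4.12, 2.61 and 2.72 RPKM in MNCs, and its call was lost without EC replicate 2, 4 or 5 or any 1 MNC replicate (adjusted p = 0.1 to 0.161). Tgfbi, a matrix protein that TGF-beta induces and monocytes make, was 28.7-fold higher in MNCs (adjusted p = 0.00779).

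Markers of both main vessel types of marrow were present in the EC libraries. Sinusoidal markers were higher in ECs for 9 of 11 tested members (median difference 4.07) and arterial markers for 14 of 15 (3.82). Stab2, a scavenger receptor of sinusoids, measured 12.9, 14.3, 7.9, 3.76 and 4.85 RPKM in ECs and no more than 0.13 RPKM in MNCs. Gja4, a gap junction gene of arterioles, measured 8.7, 51.3, 54.0, 76.8 and 8.92 RPKM in ECs with no count in MNCs, at least 346-fold higher (adjusted p = 0.000627). Mgp, an arterial matrix gene that smooth muscle and cartilage also make, ranged from 85.7 to 1104 RPKM among ECs. Single vessel markers thus varied several-fold among EC libraries, and each library holds an unknown mix of the vessel types. Lyve1, shared by sinusoids and lymphatics, did not pass: it was at 31.2 RPKM in EC replicate 5 and at 0 to 1.89 RPKM in the other EC libraries (adjusted p = 0.186). Fcgr2b, a sinusoidal and B cell Fc receptor, was at 0 to 45.2 RPKM in ECs and 48.4 to 97.8 RPKM in MNCs and did not pass (adjusted p = 0.157), although it was higher in MNCs without EC replicate 3 or 4 (adjusted p = 0.0486 and 0.0967).

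Genes of the vascular basement membrane and matrix were higher in ECs for 22 of 23 tested members (median difference 3.94). Sparcl1, a secreted matrix-binding protein, measured 518, 558, 438, 539 and 753 RPKM in ECs with no count in MNCs, at least 10592-fold higher (adjusted p = 1.67e-06). Col4a1, a chain of basement membrane collagen, was 881-fold higher (102 to 176 against 0 to 0.27 RPKM, adjusted p = 3.87e-05). Fn1, which encodes fibronectin, was the exception, at 48.3, 40.8, 51.2, 31.4 and 35.3 RPKM in ECs and 84.6, 73.2, 71.0 and 71.0 RPKM in MNCs. It reached an adjusted p of 0.000902 in favor of MNCs without a 2-fold ratio of RPKM. Pericyte and smooth muscle genes moved with this list. Of the 8 in the table, 5 were tested and 4 were higher in ECs, and their summed level was 274.1 to 1011.4 RPKM in ECs and 7.31 to 23.4 RPKM in MNCs. Rgs5, a pericyte gene, measured 597, 168, 92.3, 68.0 and 444 RPKM in ECs, Tagln 80.3 to 319 RPKM, and the pericyte markers Cspg4 and Des at most 1.01 and 0.58 RPKM. Of 19 mesenchymal stroma and bone genes, 5 were tested and 3 (Lepr, Alpl, Prrx1) were higher in ECs, or 5 when any 1 MNC replicate was left out, with a summed level of 54.1 to 122.1 RPKM in ECs and 3.57 to 11 RPKM in MNCs. The stromal markers Col1a1, Pdgfra and Col3a1 were at most 1.82 RPKM in every EC library, while Dcn was 51.1 RPKM in EC replicate 2 and Adipoq 17.4 RPKM in EC replicate 1. The part of other stromal cells in the matrix genes was not tested.

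Genes of haemostasis and vascular tone were higher in ECs for 17 of 21 tested members (median difference 2.22). Thbd, which encodes the anticoagulant thrombomodulin, measured 129.6, 156, 251, 203 and 149 RPKM in ECs and 1.43, 3.97, 4.9 and 5.09 RPKM in MNCs (46.2-fold, adjusted p = 5.11e-05). Tfpi, an inhibitor of coagulation, and Vwf, the von Willebrand factor of endothelium and platelets, were 34.3-fold and 57.7-fold higher (adjusted p = 0.000153 and 0.000779). Nos3, the nitric oxide synthase of endothelium, had 5.32 to 18.1 RPKM in ECs and 0 to 0.3 RPKM in MNCs. Plaur, the urokinase receptor of myeloid cells, was 4.35-fold higher in MNCs (adjusted p = 0.00913), so the receptor and its ligand gene Plau, higher in ECs, were on opposite sides. The Plau call was lost without EC replicate 1 or 4 or MNC replicate 1, 3 or 4 (adjusted p = 0.114 to 0.151). Besides Plaur, the list had 1 more gene higher in MNCs without EC replicate 2, and 2 more without MNC replicate 3.

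**Figure D2:**
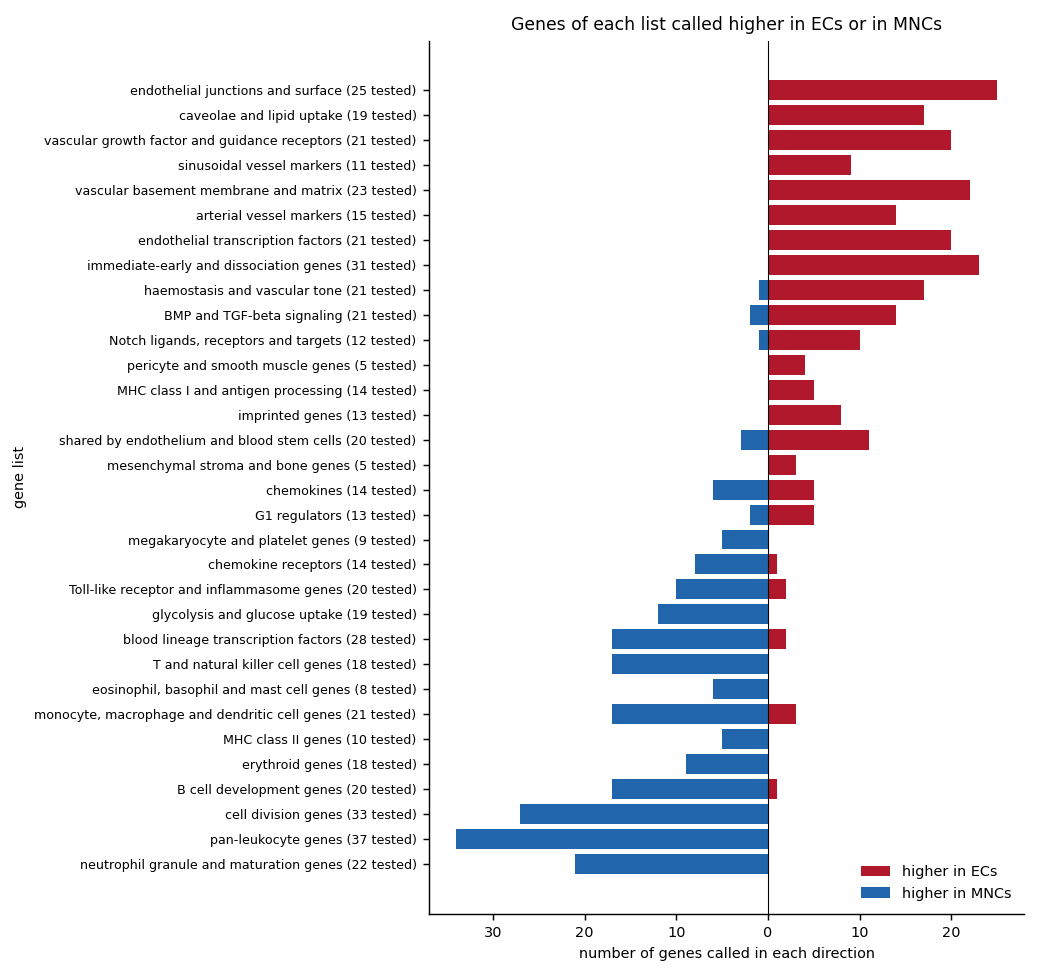
Number of tested genes of each list that were higher in ECs (red, to the right) or higher in MNCs (blue, to the left), with the number tested beside each list name and lists ordered by their median difference. Endothelial lists reach 25 genes in ECs and 0 in MNCs at the top, and pan-leukocyte genes reach 34 in MNCs and 0 in ECs near the bottom.

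Pan-leukocyte genes, which act in the cytoskeleton and signaling of all blood cells, were higher in MNCs for 34 of 37 tested members, beside the background of 16.3%, and none was higher in ECs. The median difference was -6.01. Coro1a, an actin regulator, measured 900.2, 708, 407 and 438 RPKM in MNCs and had 3 counts over all EC libraries (adjusted p = 2.01e-06). Tyrobp, an adaptor of activating receptors, was at 2259.9 to 3296 RPKM in MNCs and 0 to 0.7 RPKM in ECs. Arhgdib, a GTPase regulator, remained measurable in ECs, at 105, 81.4, 29.6, 72.2 and 15.4 RPKM against 3976, 3254, 3508 and 3955 RPKM in MNCs (60.5-fold, adjusted p = 3.54e-05). Srgn, the granule proteoglycan serglycin, was an exception, with 653 to 1025 RPKM in ECs and 457 to 612 RPKM in MNCs, a ratio of 1.56 that is short of the 2-fold rule (adjusted p = 0.0714). Lyn, a Src-family kinase, overlapped between groups (52.5 ± 16.4 against 68.7 ± 17.3 RPKM, adjusted p = 0.199).

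Neutrophil granule and maturation genes took 14 ± 0.428% of all counts in MNCs and 0.076 ± 0.0208% in ECs. Of 22 tested members, 21 were higher in MNCs (median difference -8.9). S100a8, an abundant calcium-binding protein of neutrophils, measured 99275, 80339, 71242 and 66361 RPKM in MNCs and 1047, 47.8, 1.52, 24.7 and 32.6 RPKM in ECs, and EC replicate 1 was the highest of the ECs by far (344-fold, adjusted p = 0.00427). Ngp, a granule protein, measured 35753, 40307, 44037 and 45628 RPKM in MNCs and 2.26, 18.9, 0, 0.13 and 15.9 RPKM in ECs, and it was the most abundant transcript by counts in each of the 4 MNC libraries. Ltf, the lactoferrin of secondary granules, had 2336 to 4405 RPKM in MNCs and at most 0.19 RPKM in ECs. Elane, the elastase of primary granules, had 652, 1006, 149 and 576 RPKM in MNCs and no count in ECs, at least 3099-fold higher (adjusted p = 0.000108). Both early (Elane, Mpo, Prtn3) and late (Ltf, Mmp8, Retnlg) granule genes were therefore present in every MNC library. Cxcr2, a neutrophil chemokine receptor, did not pass and was found in ECs too, at 76.5, 15.1, 20.1, 38.1 and 106 RPKM against 117, 55.5, 80.7 and 64.5 RPKM in MNCs (adjusted p = 0.611).

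Promoters of Ngp and Lcn2, a lipocalin of the same granules, are shown because the neutrophil genes moved together and because C/EBP factors, whose letters are TTGCNNAA, are known regulators of granule genes. The windows were chosen as above, with each match on either strand in capitals.
Ngp (chr9:110419558-110419857, plus strand): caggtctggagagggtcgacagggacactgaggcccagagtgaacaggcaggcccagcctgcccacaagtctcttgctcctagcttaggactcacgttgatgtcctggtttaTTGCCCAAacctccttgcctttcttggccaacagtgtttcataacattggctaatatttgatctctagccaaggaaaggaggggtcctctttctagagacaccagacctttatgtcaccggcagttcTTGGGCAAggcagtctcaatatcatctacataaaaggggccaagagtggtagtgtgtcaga
Lcn2 (chr2:32387690-32387989, minus strand): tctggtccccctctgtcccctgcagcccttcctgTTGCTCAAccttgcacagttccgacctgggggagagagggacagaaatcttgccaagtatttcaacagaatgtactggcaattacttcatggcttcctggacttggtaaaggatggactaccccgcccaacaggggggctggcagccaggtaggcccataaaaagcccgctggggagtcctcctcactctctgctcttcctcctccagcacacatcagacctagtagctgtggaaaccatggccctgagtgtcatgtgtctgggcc
The Ngp window held 2 matches and the Lcn2 window held 1. Of the 20 neutrophil list genes with a window, 9 (45%) held TTGCNNAA, compared with 10.8% of all windows, 8.81% of windows of the genes tested and 0 of 11 in the endothelial junction list. Among genes at least 8-fold higher without overlap, the share was 13.1% for MNCs and 6.9% for ECs. Cebpe, the C/EBP factor of late granulocytes, measured 22.3, 34.7, 21.8 and 15.9 RPKM in MNCs with no count in ECs, at least 168-fold higher (adjusted p = 0.000202). Cebpa did not pass, at 1.35 ± 1.59 RPKM in ECs and 2.56 ± 0.5 RPKM in MNCs (adjusted p = 0.541).

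Genes of monocytes, macrophages and dendritic cells were higher in MNCs for 17 of 21 tested members (median difference -3.19). Lyz2, the lysozyme of myeloid cells, measured 11029.9, 10815, 13492 and 18417 RPKM in MNCs and 15.1, 0.38, 1.26, 0.07 and 0.06 RPKM in ECs (3976-fold, adjusted p = 0.00085). Ccr2, which guides monocytes out of marrow, was 1325-fold higher (adjusted p = 2.15e-06). Csf1r, the receptor for macrophage growth factor, had 19.1 to 42.5 RPKM in MNCs and no count in ECs, at least 693-fold higher (adjusted p = 3.14e-05). Ly6c2, a monocyte surface gene, was 2.01-fold higher in MNCs, while its neighbor Ly6c1 was 15.3-fold higher in ECs at 9098 to 12267 RPKM (adjusted p = 0.00667 and 1.69e-06). Reads that match both of these near-identical genes were discarded in the study's processing, so their levels and the split between them are uncertain. Ly6c2 fell short of the 2-fold rule without EC replicate 1, 2 or 4 or MNC replicate 1. Against the direction of the list went Zbtb46 and Mertk. Zbtb46, a dendritic cell factor that endothelium also uses, measured 0.41, 19.7, 32.9, 10.6 and 0.92 RPKM in ECs and 0.19, 0.2, 0.14 and 0.25 RPKM in MNCs (66.2-fold, adjusted p = 0.0085). Mertk, a receptor for dying cells, had 0.11 to 8.42 RPKM in ECs and at most 0.02 RPKM in MNCs.

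B cell development genes were higher in MNCs for 17 of 20 tested members (median difference -3.89). Cd79a and Cd79b, the signaling chains of the B cell receptor, had means of 149.8 ± 68.0 and 151 ± 57.6 RPKM in MNCs, with 0 and 1 count over all EC libraries. Igll1, a gene of the surrogate light chain of B cell precursors, had 136, 274, 38.5 and 163 RPKM in MNCs and no count in ECs. Ebf1, a factor that specifies B cells, was the exception, at 16.9, 53.0, 35.1, 58.7 and 36.7 RPKM in ECs and 15.4, 28.4, 20.6 and 15.6 RPKM in MNCs. It was 2.0-fold higher in ECs (adjusted p = 0.082), its groups overlapped, and the call was lost without EC replicate 2 or 4 or any 1 MNC replicate (adjusted p = 0.108 to 0.182). T and natural killer cell genes were higher in MNCs for 17 of 18 tested members (median difference -1.97). Nkg7, a cytotoxic granule gene, had 194, 329, 149 and 196 RPKM in MNCs and no count in ECs, at least 922-fold higher (adjusted p = 2.36e-05). The T cell receptor chain Cd3e was lower, at 2.13 to 8.99 RPKM in MNCs.

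Erythroid genes varied widely within both populations. They took 0.0212% to 6.34% of counts in MNC libraries and 0.00783% to 0.373% in EC libraries. Of 18 tested members 9 were higher in MNCs (median difference -3.78). Hba-a2, the alpha chain of hemoglobin, measured 47.6, 20285, 79279 and 71658 RPKM in MNCs and 2287, 16.9, 194, 38.9 and 9.91 RPKM in ECs, and the groups overlapped (84.0-fold, adjusted p = 0.0407). Alas2, the first enzyme of heme synthesis in red cells, measured 0.11, 133, 754 and 592 RPKM in MNCs and 0 to 4.67 RPKM in ECs (adjusted p = 0.0247). With MNC replicates 1 and 2 alone only 1 erythroid gene passed, and with EC replicates 1, 4 and 5 alone 5 passed. Megakaryocyte and platelet genes were low in both, with 17.8 to 95.7 RPKM summed in MNCs and 2.8 to 56.8 RPKM in ECs, and 5 of 9 tested members were higher in MNCs, and 3 when EC replicate 2, EC replicate 5 or any 1 of the MNC replicates was left out. Eosinophil, basophil and mast cell genes were higher in MNCs for 6 of 8 tested members, and Mcpt8, a basophil protease, ranged from 1.54 to 464 RPKM among MNC libraries.

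**Figure D3:**
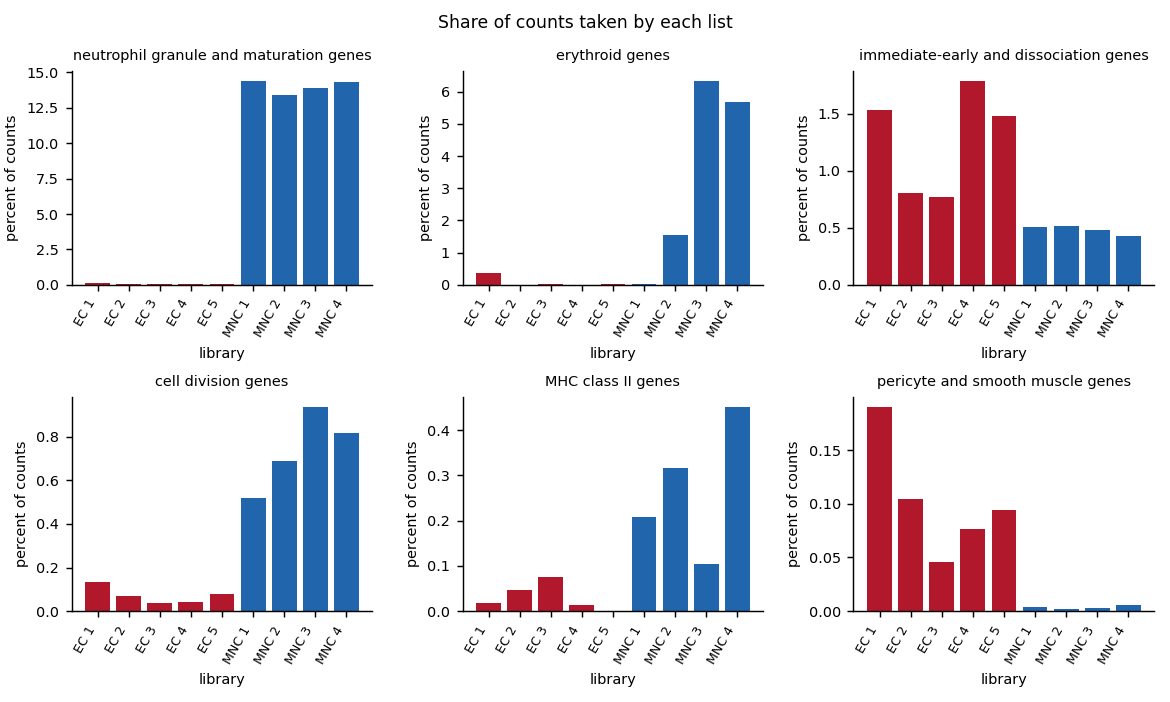
Percent of all counts taken by the genes of 6 lists in each library, with bars from 0 on separate linear axes, ECs in red and MNCs in blue. The neutrophil list takes 13.4% to 14.4% in each MNC library, the erythroid list 0.0212% to 6.34%, and the pericyte list is highest in EC replicate 1 at 0.19%.

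Transcription factors of blood lineages were higher in MNCs for 17 of 28 tested members and higher in ECs for 2 (median difference -1.73). At 7.14%, the share in ECs was below the background of 19.9%. Spi1, which encodes PU.1 of myeloid and B cells, measured 6.66, 7.8, 4.3 and 2.26 RPKM in MNCs and had no count in ECs, at least 40.1-fold higher (adjusted p = 0.000543). Ikzf1, the lymphoid factor Ikaros, was 352-fold higher (adjusted p = 0.000525). Myb, a factor of dividing progenitors, had 16.8 to 32.5 RPKM in MNCs and 1 count over all EC libraries. Gata3, a T cell factor, went the other way at 11.3, 5.31, 1.25, 1.33 and 1.61 RPKM in ECs and 0.37, 0.28, 0.43 and 0 RPKM in MNCs (15.4-fold, adjusted p = 0.0478), but not without MNC replicate 1 or 2 (adjusted p = 0.102 and 0.118).

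Of 20 tested genes that endothelium shares with blood stem cells, 11 were higher in ECs (55%, beside the background of 19.9%) and 3 in MNCs (15%, close to the background of 16.3%), and 6 did not pass (median difference 0.43). Mecom, a factor that blood stem cells need, measured 46.8, 40.4, 43.2, 34.6 and 43.3 RPKM in ECs and 0, 0.04, 0 and 0.08 RPKM in MNCs, 6 counts in all (adjusted p = 9.91e-06). Gata2, which acts in stem cells, mast cells and endothelium, measured 30.9, 50.4, 66.7, 42.6 and 41.0 RPKM in ECs and 0.02, 7.79, 6.76 and 2.77 RPKM in MNCs (10.7-fold, adjusted p = 0.0448, and 0.113 without MNC replicate 4). Fli1, an ETS factor of both, was 5.68-fold higher in ECs (adjusted p = 1.32e-05), and Cd34, a surface marker of both, 20.2-fold (adjusted p = 7.98e-05). Ly6a, which encodes Sca-1, measured 4585, 6136, 4842, 5142 and 5441 RPKM in ECs and 146, 90.5, 152 and 108 RPKM in MNCs (42.1-fold, adjusted p = 1.86e-06). Kit, the receptor for Kit ligand, and Meis1, a stem cell factor, were 115-fold and 31.9-fold higher in MNCs (adjusted p = 0.00085 and 0.000274). Tal1 stood at 0.43, 0.57, 6.56, 6.65 and 6.09 RPKM in ECs and 0.33, 4.86, 11.8 and 7.15 RPKM in MNCs and Runx1 at 0.05 to 4.0 and 2.19 to 7.56 RPKM, and neither passed (adjusted p = 0.598 and 0.115), although Runx1 was higher in MNCs without EC replicate 4 (adjusted p = 0.0271). Lmo2, a binding partner of Tal1, stood at 24.9 ± 4.41 RPKM in ECs and 42.6 ± 6.54 RPKM in MNCs, short of the 2-fold rule (adjusted p = 0.0352).

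Gene pairs that arose by duplication were set side by side. Except in the pair of nuclear lamins, each had a member known from blood cells and a member used more widely. In 11 of 21 pairs the blood gene was higher in MNCs and the other gene was higher in ECs. In 8 pairs the blood gene was higher in MNCs and the other did not pass. Of all genes tested, 16.3% were higher in MNCs and 19.9% in ECs. Blood genes other than Lmnb1 were picked as known from blood cells, and all pairs with earlier results known, so these counts describe the chosen pairs only. Rac2, the Rac GTPase of blood cells, measured 847, 628, 745 and 879.6 RPKM in MNCs and 1.31, 1.59, 1.12, 1.64 and 1.66 RPKM in ECs (529-fold, adjusted p = 1.31e-07), and Rac1 was 3.41-fold higher in ECs at 205, 149.9, 225, 135 and 120.2 RPKM against 81.9, 47.1, 34.4 and 32.5 RPKM (adjusted p = 0.00249). The blood member was thus nearly absent from ECs, while the other member was present in both. Integrin beta chains followed the same order, with Itgb2 at 269 to 315 RPKM in MNCs and 4 counts in ECs, and Itgb1 at 86.3 to 173 RPKM in ECs and 10.7 to 28.5 RPKM in MNCs (8.24-fold, adjusted p = 0.000176). Lcp1 and Pls3, actin-bundling plastins, were 80.9-fold higher in MNCs and 142-fold higher in ECs (adjusted p = 0.00167 and 0.00569). Cybb, the oxidase subunit of phagocytes, was 4472-fold higher in MNCs, and Nox4, its vascular relative, 2.77-fold higher in ECs (adjusted p = 2.85e-05 and 0.0634). The Nox4 call was lost without any 1 MNC replicate (adjusted p = 0.103 to 0.154), and that of Plcg1, the wider relative of Plcg2, without EC replicate 2 or 5 or MNC replicate 1, 2 or 4 (adjusted p = 0.113 to 0.168). Of the nuclear lamins, Lmnb1 was put in the place of the blood gene, although it is not particular to blood cells. Lmnb1 did not pass, at 0 to 4.2 RPKM in ECs and 1.85 to 7.91 RPKM in MNCs (adjusted p = 0.331, and 0.00581 without EC replicate 2). Lmna was 29.5-fold higher in ECs at 133 to 217 RPKM (adjusted p = 0.000957). Vav2 was on the same side as its blood relative Vav1, at 0.18 to 1.54 RPKM in MNCs and 3 counts in ECs.

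The kindlins, which switch on integrins, were the only pair of the 21 in which each gene had no count in the other population. Fermt3, the kindlin of blood cells, measured 69.4, 64.7, 58.9 and 61.6 RPKM in MNCs, at least 956-fold higher, and Fermt2 measured 91.4, 63.0, 132, 100.4 and 77.1 RPKM in ECs, at least 1812-fold higher (adjusted p = 1.21e-05 and 6.82e-06). Their promoter windows are shown to set the pair beside each other, with GGAAG and CTTCC in capitals as above.
Fermt2 (chr14:45530016-45530315, minus strand): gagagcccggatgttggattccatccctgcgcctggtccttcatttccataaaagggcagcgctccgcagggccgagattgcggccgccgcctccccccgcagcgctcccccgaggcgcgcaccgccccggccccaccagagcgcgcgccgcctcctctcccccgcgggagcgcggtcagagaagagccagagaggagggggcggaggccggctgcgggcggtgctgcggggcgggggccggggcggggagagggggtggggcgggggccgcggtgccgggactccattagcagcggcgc
Fermt3 (chr19:7019420-7019719, minus strand): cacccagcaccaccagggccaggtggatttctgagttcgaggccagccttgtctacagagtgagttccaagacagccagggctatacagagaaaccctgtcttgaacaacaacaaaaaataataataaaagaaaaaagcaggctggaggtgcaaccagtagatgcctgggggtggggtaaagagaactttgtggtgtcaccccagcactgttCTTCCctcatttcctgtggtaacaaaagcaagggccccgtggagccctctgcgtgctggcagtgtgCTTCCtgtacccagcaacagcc
The Fermt3 window held 2 matches and the Fermt2 window held 0, which says only that these letters are not in this window.

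**Figure D4:**
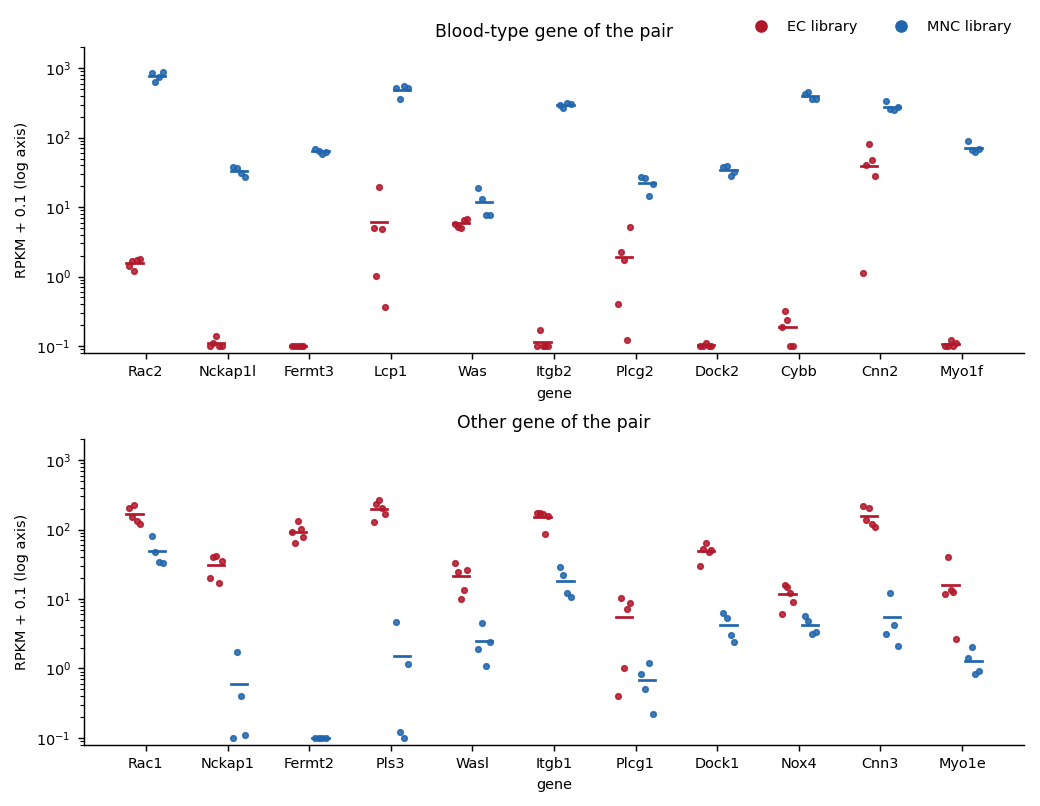
RPKM + 0.1 on a log axis for the 11 pairs in which the blood gene (upper panel) was higher in MNCs and the other gene (lower panel) was higher in ECs, with 1 point per library and a bar at the mean, ECs in red and MNCs in blue. Blood genes such as Rac2 and Fermt3 do not overlap between populations, while Plcg1 in the lower panel does.

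Ligands and receptors were compared to see which side of a known pair each population carried. Of 38 pairs, both genes were tested in 31. In 11 pairs the ligand was higher in ECs and the receptor in MNCs, in 3 the ligand was higher in MNCs and the receptor in ECs, in 5 both were higher in ECs, and in 2 both were higher in MNCs. Over all pairs, 20 ligands and 10 receptors were higher in ECs, and 7 ligands and 19 receptors were higher in MNCs, where a gene in more than 1 pair was counted each time. Of all genes tested, 19.9% were higher in ECs and 16.3% in MNCs. The pairs were chosen with earlier results of these data known, so the counts describe the chosen pairs only.

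Kitl, the ligand that sustains blood stem cells and mast cells, measured 104, 251, 209, 157 and 185 RPKM in ECs and 0.47, 0, 0.44 and 0.01 RPKM in MNCs (788-fold, adjusted p = 0.000622), and its receptor Kit measured 3.53, 9.99, 6.18 and 2.44 RPKM in MNCs and at most 0.11 RPKM in ECs. Cxcl12, which retains stem cells and B cell precursors in marrow, measured 222, 163, 165, 177 and 146 RPKM in ECs and 0, 0.02, 1.33 and 0.01 RPKM in MNCs (514-fold, adjusted p = 0.00107). Its receptor Cxcr4 was 6.25-fold higher in MNCs (adjusted p = 0.00103), and its scavenging receptor Ackr3 was at 13.1 to 106 RPKM in ECs with 3 counts over all MNC libraries. Both niche ligands were therefore above every MNC library in every EC library.

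Adhesion pairs used to enter and stay in marrow had the transcript of the endothelial ligand in ECs and that of the leukocyte receptor in MNCs. Vcam1 was 18.5-fold higher in ECs (97.0 ± 30.5 against 5.25 ± 3.17 RPKM, adjusted p = 0.00121), and Itga4, a chain of its receptor, 12.8-fold higher in MNCs (adjusted p = 0.000101). Icam1 and Icam2 were 12.7-fold and 14.5-fold higher in ECs (adjusted p = 3.88e-05 and 6.62e-05), and Itgal, their receptor chain, had 18.4 to 29.1 RPKM in MNCs and 1 count in ECs. Sele, the endothelial selectin, measured 52.5, 29.5, 18.1, 48.0 and 3.21 RPKM in ECs, and Selp, the selectin of endothelium and platelets, measured 130.2, 93.4, 55.0, 45.8 and 1.85 RPKM. Both were lowest in EC replicate 5, where Selp lay within the MNC range. Selplg, their ligand on leukocytes, was 227-fold higher in MNCs (adjusted p = 6.4e-06).

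Ligands higher in MNCs with a receptor higher in ECs were Il1b, Osm and Angpt1. Il1b, an inflammatory cytokine of myeloid cells, measured 55.4, 31.9, 25.8 and 28.4 RPKM in MNCs with no count in ECs, at least 275-fold higher (adjusted p = 0.000121), and its receptor Il1r1 was 139-fold higher in ECs at 33.8, 57.7, 101, 74.1 and 22.9 RPKM (adjusted p = 0.000614). Osm, a cytokine of neutrophils and macrophages, measured 68.2, 22.8, 10.6 and 4.24 RPKM in MNCs, highest in replicate 1, and Osmr measured 60.7, 46.5, 115, 96.5 and 70.1 RPKM in ECs and at most 0.05 RPKM in MNCs. Angpt1, the activating ligand of Tek, was 27.5-fold higher in MNCs (adjusted p = 0.0111), but MNC replicate 1 at 0.21 RPKM lay within the EC range of 0.02 to 0.34 RPKM. The other Tek ligand, Angpt2, was 29.6-fold higher in ECs (adjusted p = 0.000275). Pairs with both genes higher in ECs also included Efnb2 with Ephb4, and Vegfc with Flt4. Vegfc measured 34.5, 35.6, 145, 57.6 and 0.06 RPKM in ECs, and replicate 5 was near 0.

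Several niche signals did not pass or were too low to test. Flt3l, the ligand of Flt3, was at 0, 11.3, 0.07, 17.3 and 0.52 RPKM in ECs and 8.44, 4.32, 3.65 and 1.69 RPKM in MNCs (adjusted p = 0.928), and Flt3 had 2.53 to 6.96 RPKM in MNCs and 2 counts in ECs. Il7, which B cell precursors need, was at 24.2 RPKM in EC replicate 3 and at most 0.17 RPKM in the other ECs and was not tested. Csf1 passed in ECs at 1.26 to 16.6 RPKM against 0.14 to 1.25 RPKM (adjusted p = 0.0929), but not without EC replicate 2 or 3 or any 1 MNC replicate (adjusted p = 0.123 to 0.204). Csf3, Csf2, Thpo and Epo had mean levels of at most 0.122 RPKM in both populations. Vegfa was 2.71 ± 2.79 RPKM in ECs and 1.34 ± 0.937 RPKM in MNCs (adjusted p = 0.427), so its receptors but not this ligand were called.

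**Figure D5:**
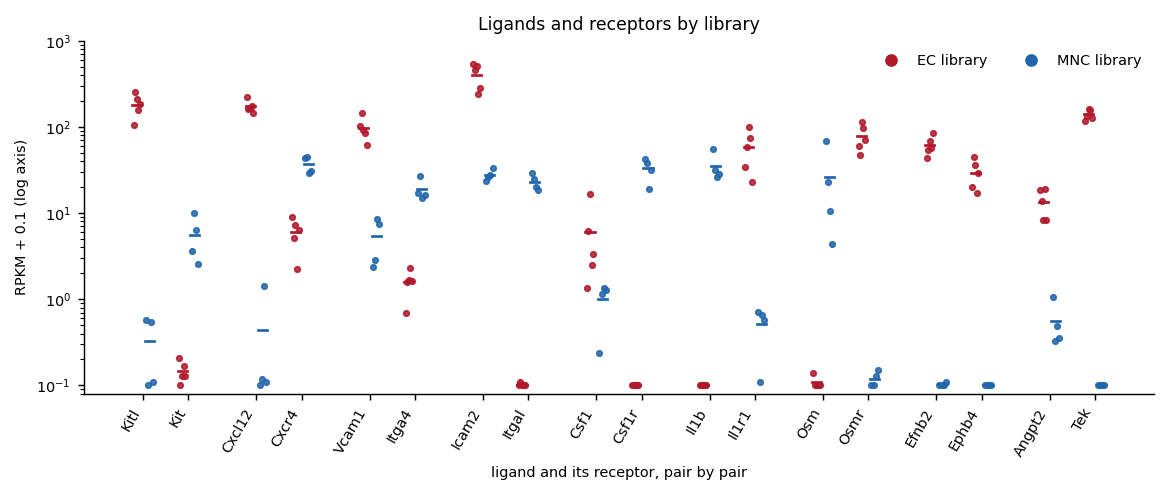
RPKM + 0.1 on a log axis for 9 ligands and their receptors, side by side, with 1 point per library and a bar at the mean, ECs in red and MNCs in blue. From Kitl to Csf1 the ligand is higher in ECs and the receptor in MNCs, for Il1b and Osm the order is turned, and for Efnb2 and Angpt2 both are higher in ECs.

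Cell division genes were higher in MNCs for 27 of 33 tested members (median difference -3.94) and took 0.74 ± 0.18% of counts in MNCs and 0.072 ± 0.0379% in ECs. Ccnb2, a cyclin of mitosis, measured 116, 147, 215 and 159 RPKM in MNCs and 1.09, 0.03, 0, 0 and 0.21 RPKM in ECs (599-fold, adjusted p = 0.000368). Rrm2, which makes DNA precursors, was 16.7-fold higher (adjusted p = 0.0282), and EC replicate 1, the library with erythroid transcripts, was at 125 RPKM beside 1.65 to 11.7 RPKM in the other ECs. Pcna, a clamp used in replication and repair, did not reach a 2-fold ratio (160.4 ± 52.0 against 305 ± 43.9 RPKM, adjusted p = 0.0151) and reached it without EC replicate 1, EC replicate 5 or MNC replicate 1.

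Glycolysis and glucose uptake genes were higher in MNCs for 12 of 19 tested members, and none was higher in ECs (median difference -1.5). In ECs 1 gene of this list passed without EC replicate 3 and 1 with DESeq2. Pkm, the pyruvate kinase, measured 722, 536, 621 and 651 RPKM in MNCs and 31.8, 33.8, 30.9, 58.7 and 52.9 RPKM in ECs (15.2-fold, adjusted p = 3.5e-06). Gapdh and Ldha were 3.04-fold and 2.57-fold higher (adjusted p = 0.000256 and 0.000746). Hexokinases Hk2 and Hk3 were near 0 in ECs, with means of 26.2 ± 1.76 and 44.3 ± 9.34 RPKM in MNCs, while Hk1 overlapped (11.1 ± 10.4 against 9.7 ± 5.71 RPKM, adjusted p = 0.791). The glucose transporter Slc2a3 was 3.51-fold higher in MNCs (adjusted p = 0.00206), and Slc2a1 was 5.87 ± 2.74 RPKM in ECs and 5.71 ± 1.7 RPKM in MNCs (adjusted p = 0.916).

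Immediate-early and dissociation genes, which rise within minutes of stress and during tissue digestion, were higher in ECs for 23 of 31 tested members (median difference 2.46), and for 15 without EC replicate 4. They took 0.772% to 1.79% of counts in ECs and 0.431% to 0.516% in MNCs. Fos measured 1073, 586, 614, 1146 and 725 RPKM in ECs and 323, 239, 10.4 and 8.06 RPKM in MNCs (5.72-fold, adjusted p = 0.0737). The groups did not overlap, but the Fos call was lost without EC replicate 1 or 4 or MNC replicate 2 or 3 (adjusted p = 0.105 to 0.11). Ier3 and Nfkbia, targets of NF-kappaB, were 24.8-fold and 9.95-fold higher in ECs (adjusted p = 0.000284 and 4.28e-05). Hspa1a, a heat-shock gene, measured 146, 31.3, 26.5, 193 and 77.9 RPKM in ECs and at most 0.86 RPKM in MNCs. ECs came from digested bone, and since digestion of the MNCs is not settled, population and digestion cannot be told apart for this list.

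Some class I antigen presentation genes were higher in ECs and some class II genes were higher in MNCs. B2m, the shared light chain of class I molecules, measured 9981, 9971, 10846, 9234 and 6988 RPKM in ECs and 2343, 2746, 2110.1 and 2294 RPKM in MNCs (3.96-fold, adjusted p = 3.81e-05), and H2-D1 and H2-K1 were 2.21-fold and 2.64-fold higher in ECs (adjusted p = 0.00743 and 0.00152). Reads that match several class I genes were discarded, so the levels of H2-D1 and H2-K1 and the split between them are uncertain. H2-D1 fell short of the 2-fold rule without MNC replicate 4. The list had 5 of 14 tested members higher in ECs (35.7%, beside the background of 19.9%), and 3 without MNC replicate 4. Its median difference was 0.48, and the peptide transporter Tap1 and the immunoproteasome gene Psmb8 did not pass. Class II genes were higher in MNCs for 5 of 10 tested members (median difference -3.6). That count was 3 without EC replicate 4 or without MNC replicate 1, 2 or 3, and 2 without MNC replicate 4. Cd74, the invariant chain, measured 87.9, 224, 359, 20.4 and 0.7 RPKM in ECs and 844, 1323, 482 and 2140.0 RPKM in MNCs (8.65-fold, adjusted p = 0.0774), and its call was lost without EC replicate 1, 2 or 4 or any 1 MNC replicate (adjusted p = 0.1 to 0.188). EC replicate 5 had almost no class II transcripts, while H2-Aa in EC replicate 3, at 182 RPKM, was above MNC replicate 3 at 114 RPKM. H2-Aa did not pass (adjusted p = 0.132) and was higher in MNCs without EC replicate 3 or 5 (adjusted p = 0.0468 and 0.0561).

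Toll-like receptor and inflammasome genes were higher in MNCs for 10 of 20 tested members and higher in ECs for 2, Il1r1 and Tlr3 (median difference -1.11). These shares were 50% and 10%, beside 16.3% and 19.9% of all genes tested, so the share in ECs was below background. Tlr3, the sensor of double-stranded RNA, measured 9.18, 9.91, 10.6, 11.9 and 5.71 RPKM in ECs and 0.16, 0.65, 0.17 and 0.66 RPKM in MNCs (23.0-fold, adjusted p = 0.000597). Tlr13, a sensor of bacterial RNA, was 83.4-fold higher in MNCs (adjusted p = 1.01e-05). Tlr4, the endotoxin receptor, was at 10.01, 8.27, 21.4, 9.69 and 0 RPKM in ECs and 9.1, 6.17, 9.39 and 6.42 RPKM in MNCs and did not pass (adjusted p = 0.924).

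Chemokine genes of the list that passed were split by family, while Ccl25, Cxcl2 and Cxcl10 did not pass (median difference 0.05). Of 14 tested, the 5 higher in ECs were Cxcl12, Cxcl1, Cxcl9, Cxcl16 and Cx3cl1, and the 6 higher in MNCs were Ccl6, Ccl5, Ccl9, Ccl4, Ccl2 and Ccl3. They made up 35.7% and 42.9% of the tested members, beside 19.9% and 16.3% of all genes tested. With MNC replicates 3 and 4 alone, 3 passed in ECs. Cxcl1, a neutrophil attractant, varied from 0.87 to 265 RPKM among ECs and had 1 count in MNCs. Ccl6 measured 667, 479, 396 and 663 RPKM in MNCs and at most 0.19 RPKM in ECs (adjusted p = 8.59e-06). Among 14 tested chemokine receptors, 8 were higher in MNCs (57.1%), led by Ccr2, and only Ackr3 was higher in ECs (7.14%, below the background).

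Outside the lists, the genes with the largest fitted differences among those at 50 RPKM or more were Tm4sf1, Fmo1, Adh1, Tspan12, Timp4, Lims2, Fermt2 and Sncg in ECs. Tm4sf1, a membrane protein of endothelium and tumor cells, measured 1255, 1236, 1352, 938 and 1068 RPKM in ECs with no count in MNCs, at least 12881-fold higher (adjusted p = 1.4e-06). Adh1, an alcohol and retinol dehydrogenase, and Fmo1, a drug-metabolizing oxygenase, had means of 408 ± 188 and 395 ± 75.5 RPKM in ECs, again with no MNC count. Timp4, an inhibitor of matrix proteases, had 485 to 1176 RPKM in ECs and 1 count in MNCs. The counterparts in MNCs were mFLJ00385, Rgs18, Lilrb4, Chil1, Ly86, M13680, Ms4a6b and Ifitm6. Rgs18, a regulator of G-protein signaling in blood cells, measured 155, 126, 185 and 172 RPKM in MNCs with no count in ECs, at least 1710.2-fold higher (adjusted p = 1.93e-05). Lilrb4, an inhibitory receptor of myeloid cells, had 314 to 827 RPKM in MNCs and 1 count in ECs. The transcript listed as mFLJ00385 was uneven, at 1.8, 0.21, 1409.9 and 767 RPKM over the 4 MNC libraries.

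Among the 12 most abundant genes that were at least 8-fold higher in ECs without overlap, those not yet described were Cd200, Sptbn1 and AW112010. Cd200, an immune-inhibitory surface protein, was 245-fold higher (1210.4 ± 149.8 against 4.93 ± 3.06 RPKM, adjusted p = 1.96e-05). Sptbn1, a spectrin of the membrane skeleton, was 77.9-fold higher (1152 ± 162 against 14.8 ± 4.27 RPKM, adjusted p = 3.41e-07). In MNCs the same rule named Retnlg and Chil3, secreted products of neutrophils and other myeloid cells, with 4159.8 to 11144 and 3526 to 6782 RPKM, and Anxa1, an inhibitor of inflammation that ECs also carried (317 ± 115 against 3221 ± 379.7 RPKM, 10.1-fold, adjusted p = 4.28e-05).

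The genes closest to equal, with at least 200 RPKM on average in both populations, were DQ693239, DQ547524, Nedd8, Rpl10a, Rps18 and Usmg5. Nedd8, a ubiquitin-like modifier, measured 287, 281, 261, 180.4 and 307 RPKM in ECs and 274, 250.1, 204 and 233 RPKM in MNCs, with a log2 fold change of 0.0 ± 0.23 (SE). Rps18, a ribosomal protein gene whose pseudogenes can match its reads, had a log2 fold change of 0.01 ± 0.18. Levels of these genes overlapped between the groups.

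The genes that varied most within a population named the libraries that stood apart. In ECs they were Gm21541, Car1, Gm1987, Car2 and Cytl1. Gm21541 and its near-identical copy Gm1987 measured 2216 and 1079.8 RPKM in EC replicate 5 and 0 in replicate 1, and their reads cannot be told apart with certainty. Car1 and Car2, carbonic anhydrases of red cells, were at 556 and 594 RPKM in EC replicate 1 and at most 12.4 RPKM in the others, and without that library Car2 was higher in MNCs (adjusted p = 0.0223). Cytl1, a secreted cytokine-like protein, measured 189.6, 201, 103, 211 and 0.23 RPKM. In MNCs they were mFLJ00385, Hba-a2, Hbb-bs, Hbb-bt and Prss34, and Prss34, a basophil protease, measured 0.39, 654, 1945 and 49.1 RPKM. Hemoglobin genes and Prss34 were all lowest in MNC replicate 1, and the call of Hbb-bt (adjusted p = 0.0525) was lost without MNC replicate 3 (adjusted p = 0.103).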

How the data were processed

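RNA was sequenced from 5 wild-type EC libraries and 4 wild-type MNC libraries, grouped by the labels alone. The authors deposited gene counts, whole numbers that per the study's methods came from estimates of RSEM, and RPKM values made from the same reads. Per the submitters' processing notes reads were aligned with Bowtie to mm10 and counted with RSEM (versions not given in the sources used here), and reads without a unique position were discarded, which lowers the values of genes with near-identical copies. The library kit does not mark strand, so overlapping antisense genes cannot be separated. Deposited counts were used for tests and deposited RPKM for levels, and the 2 ratios differed by more than 1 on the log2 scale for 53 of 13840 genes, Notch4 and Fn1 among them.

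Genes were filtered with filterByExpr and tested with edgeR 4.0.16 (TMM scaling, quasi-likelihood test, R 4.3.3, limma 3.58.1) with no covariate. A gene passed at a Benjamini-Hochberg adjusted p-value below 0.1 and a ratio of mean RPKM of at least 2. DESeq2 1.42.0 was an alternative. Values were summarized with Python 3.11.15, pandas 2.3.3 and scipy 1.17.1. In data simulated from these libraries for this comparison (14125 genes), edgeR recovered 14% of genes changed 4-fold and 50% of genes changed 16-fold, with 8.57% of its calls unchanged, and DESeq2 recovered 36% and 84%, with 57.1% of its calls unchanged. Only 100 genes were changed at each fold, while 36.2% of genes passed in the measured data. The simulated rates therefore need not carry over to the measured data. At this number of libraries a gene that did not pass may still differ. A count of 3 per library was the floor for bounds, and floors cover counting error only. Fold changes are ratios of mean RPKM unless called fitted, and medians of lists are differences of mean log2(RPKM + 1).

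The 35 gene lists, the pairs and the libraries compared were chosen with earlier results of these data known. Genes were named by rule. These were members of a list, first the 4 called members with the highest level in each direction and those against the direction of their list, all genes of the pairs, the 12 most abundant genes at least 8-fold higher without overlap in each direction, the 8 genes outside the lists with the largest fitted change at 50 RPKM or more, the 6 genes closest to equal at 200 RPKM or more in both, and the 5 genes that varied most within a population at 100 RPKM or more. Further members of the lists were described for their role, after their values were seen. Alternatives were other scalings, no filter, DESeq2, no fold rule, a threshold of 0.01, a block on the replicate number, leaving out each library, and a pseudocount of 0.1, and 3 subsets of libraries added after seeing the data. Promoter sequences were read from RefSeq (GRCm38.p6). In addition, 38 columns of other samples were not used. A few genes were left out of the text.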

Additional observations from a re-analysis of the deposited data

Results flagged for a closer look

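In groups of 4 or 5 libraries, the highest or lowest value was checked for its gap to the nearest other value against Dixon's 95% critical value. Of 218 values, from 72 genes, 35 lists, total counts and genes detected in each population, 20 were past it. A chance rate of about 1 in 20 groups holds for normally distributed values, and these levels, several of them near 0, need not be so. Lists and some of their own members were both checked, so the values are not independent, and an excess over chance was not tested. EC replicate 1 was the high library in 9 of the 20. Among them were erythroid genes (3767.8 RPKM summed, Hba-a2 at 2287.5 and Alas2 at 4.67 RPKM) and myeloid genes (neutrophil list at 1617.8 RPKM summed, S100a8 at 1047 and Lyz2 at 15.1 RPKM). The others in EC replicate 1 were megakaryocyte and platelet genes (56.8 RPKM summed), Ccnb2 (1.09 RPKM) and Osm (0.04 RPKM). In other EC libraries, lymphatic vessel genes reached 36.4 RPKM summed in replicate 5 and T and natural killer cell genes 13.5 RPKM summed in replicate 3.

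In MNC replicate 3, the summed level of sinusoidal vessel markers was the lowest of the 4 MNC libraries at 60.5 RPKM, and Cxcl12 at 1.33 and Rgs5 at 0.88 RPKM were the highest. Fn1 was highest in MNC replicate 1 at 84.6 RPKM. The remaining values stood apart at levels near 0. They were Sele at 0.3 RPKM in MNC replicate 1, Cytl1 at 0.1 and Vegfc at 0.05 RPKM in MNC replicate 4, Coro1a at 0.08 RPKM in EC replicate 2 and mFLJ00385 at 0.05 RPKM in EC replicate 3.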

How the results depend on the processing

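No gene that passed had the opposite call in any alternative. A threshold of 0.01 left 1423 genes higher in ECs and 1402 higher in MNCs. With MNC replicates 1 and 2 alone 1531 genes were higher in ECs, and with MNC replicates 3 and 4 alone 1827, in subsets chosen after seeing the data that have fewer libraries. Leaving out 1 library gave 2336 to 2808 genes in ECs and 2019 to 2481 in MNCs. With other scalings, no filter, DESeq2 or the adjusted p-value alone, the counts were 2636 to 3519 in ECs and 2196 to 3421 in MNCs. In the fit with the replicate number as a block, 2021 genes were higher in ECs and 2330 in MNCs, of which 1963 and 2020 had passed without it. Replicates with the same number did not deviate together (r of -0.075, 0.002, 0.009 and -0.018 across genes for numbers 1 to 4). The labels do not say whether the same number means the same mouse. With the spread among EC libraries, these r values cannot exclude it. Of 203 named genes that passed, 168 passed under every alternative, and the cause of the other changes was not tested. Of 1330 list counts under alternatives, 1211 stayed within 1.5 times. That total includes counts of 0, such as junction genes higher in MNCs, which were 0 in every setting. The share therefore says less about the lists with called genes. The erythroid count fell from 9 to 1 at a threshold of 0.01 and with the block, the immediate-early count from 23 to 11 and the cell division count from 27 to 17 at 0.01, and the count of eosinophil, basophil and mast cell genes rose from 6 to 10 with DESeq2 or no filter. With a pseudocount of 0.1 the median difference of all genes was -0.15. Depth limits levels under the floor of 3 counts, and the spread of EC libraries limits single genes.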

Other observations

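Imprinted genes, which are expressed from a single parental copy and are known from growth control and stem cell quiescence, were higher in ECs for 8 of 13 tested members and higher in MNCs for none (median difference 0.43). They took 0.162 ± 0.0163% of counts in ECs and 0.0321 ± 0.00699% in MNCs. Gnas, a G-protein subunit, measured 234, 284, 162, 229.7 and 183 RPKM in ECs and 78.0, 71.4, 50.6 and 49.3 RPKM in MNCs (3.51-fold, edgeR adjusted p = 0.00025). Grb10, an inhibitor of insulin and growth factor receptors, measured 49.0, 47.1, 57.0, 35.3 and 45.1 RPKM in ECs and 0.2, 0.29, 0.15 and 0.32 RPKM in MNCs. Igf2, a fetal growth factor, was uneven among ECs at 17.5, 1.62, 10.02, 7.21 and 0.05 RPKM, and Igf2r, which degrades it, was 13.1-fold higher in ECs (edgeR adjusted p = 2.53e-05). Cdkn1c, an inhibitor of the cell cycle, ranged from 24.1 to 50.1 RPKM in ECs and from 0.04 to 0.26 RPKM in MNCs.

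Of 13 tested regulators of the first phase of the cell cycle, 5 were higher in ECs (38.5%, beside 19.9% of all genes tested) and 2 were higher in MNCs (15.4%, close to the 16.3% of all genes tested), with a median difference of -0.08. With MNC replicates 1 and 2 alone, 3 passed in ECs. Cdkn1a, the inhibitor p21, measured 80.5, 55.9, 76.6, 57.2 and 133 RPKM in ECs and 8.98, 9.55, 1.92 and 2.54 RPKM in MNCs (14-fold, edgeR adjusted p = 0.000523). The D-type cyclins, which share a role at this step, went to different sides: Ccnd1 had 1.7 to 23.7 RPKM in ECs and 1.06 to 3.36 RPKM in MNCs, and Ccnd2 was 2.73-fold higher in ECs, while Ccnd3 was 10-fold higher in MNCs (edgeR adjusted p = 0.0227, 0.0188 and 0.00773). Cdkn2d, an inhibitor of D-type cyclin kinases, was 6.61-fold higher in MNCs (edgeR adjusted p = 0.000947).

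Of the lymphatic vessel genes, 2 of 3 were tested and none passed. The lymphatic factor Prox1 was at 0 to 0.34 RPKM in ECs. Of 8 skeletal muscle and Schwann cell genes, only Acta1 was tested, at 6.63 to 28.9 RPKM in ECs and 23.6 to 34.0 RPKM in MNCs (edgeR adjusted p = 0.0886), and the call was lost without any 1 replicate other than EC replicate 2 (edgeR adjusted p = 0.109 to 0.202). Pearson's r of log2(RPKM + 1) over 13124 genes, which are not independent replicates, had a median of 0.782 among the 10 pairs of EC libraries, 0.949 among the 6 pairs of MNC libraries and 0.482 among the 20 mixed pairs.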
